A study of Mus musculus with 8 samples.

Results

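The genes of glucose uptake, glycolysis, lactate export and pyruvate entry into mitochondria were followed in Lewis lung carcinoma (LLC) cells, a mouse lung cancer line, with and without FIH. The 38 genes were chosen by symbol in the count table, which holds 53700 gene rows, and all 38 were among the 13933 genes with enough reads to be tested. One more row, Gm57854 in the reference annotation, also carries the symbol Aldoa and overlaps that gene. It held at most 5.43 CPM (a count scaled to the library size with TMM normalization) in any library, and it was left out of the counts below. The 4 groups were WT LLC cells at 21% O2 (WT normoxia), WT cells at 1% O2 (WT hypoxia), FIH-KO cells at 21% O2 (FIH-KO normoxia) and FIH-KO cells at 1% O2 (FIH-KO hypoxia), with 2 libraries each, after 16 hours of culture at that oxygen level. FIH-KO cells were made with a Cas9 ribonucleoprotein that cuts exon 2 of Hif1an, the mouse gene for FIH, and were then cloned by single-cell dilution, while no other treatment is given for any group. The labels do not say how many clones the libraries represent or whether the libraries of a group came from separate cultures. An effect of FIH loss therefore cannot be told apart from a difference between clones, and p-values measure only the spread between these libraries, which may be technical.

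Glycolysis splits glucose into pyruvate in the cytosol and yields a small amount of ATP without oxygen. Pyruvate is then either reduced to lactate and exported or carried into mitochondria, where the pyruvate dehydrogenase (PDH) complex turns it into acetyl-CoA. Hypoxia-inducible factors (HIFs) are transcription factors that bind hypoxia response elements beside many of these genes, and PDH kinase 1 and lactate dehydrogenase A are textbook HIF-1 targets. FIH is an oxygen-dependent asparaginyl hydroxylase. It modifies the HIF alpha subunits and so weakens their contact with the coactivators p300 and CBP.

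Promoter sequence is shown for 3 genes, a glucose transporter (Slc2a1), the first ATP-yielding enzyme (Pgk1) and lactate dehydrogenase (Ldha), so that the core of the hypoxia response element can be seen beside the expression values. Each line gives up to 160 bases from the window that RefSeq places before a transcription start, 5′ to 3′ on the strand of the gene, without bases of annotated exons. Capitals mark the cores ACGTG and GCGTG, or CACGT and CACGC where the core lies on the other strand.
Slc2a1 (GRCm39 chr4:118965748-118965907, plus strand): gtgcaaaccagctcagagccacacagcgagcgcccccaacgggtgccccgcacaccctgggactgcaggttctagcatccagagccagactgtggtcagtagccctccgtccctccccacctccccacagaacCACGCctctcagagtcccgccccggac
Pgk1 (GRCm39 chrX:105230546-105230705, plus strand): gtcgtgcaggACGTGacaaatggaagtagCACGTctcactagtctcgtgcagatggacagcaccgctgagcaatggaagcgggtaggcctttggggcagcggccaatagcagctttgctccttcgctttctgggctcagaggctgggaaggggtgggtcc
Ldha (GRCm39 chr7:46494978-46495131, plus strand): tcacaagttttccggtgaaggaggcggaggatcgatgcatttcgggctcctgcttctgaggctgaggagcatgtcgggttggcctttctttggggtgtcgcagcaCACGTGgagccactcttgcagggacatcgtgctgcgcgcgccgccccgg

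The stretch of Slc2a1 held 1 core and that of Pgk1 held 2. That of Ldha held 2 core positions in 1 palindrome, CACGTG, which reads ACGTG on each strand and is also the E-box bound by Myc. Full windows of 300 bases ran from 250 before to 50 after the start, and each CACGTG palindrome in them counts as 2 core positions. For some of the genes, the window with the most positions held 7 for Ldha, 5 for Hk1, 4 for Pfkp, and 2 each for Slc2a1, Slc16a3 and Pdk1. A stretch of Pfkp without bases of annotated exons (87 bases) held 0 cores and is not printed. A core was present in 41 of the 56 RefSeq windows of these genes (73.2%) and for 31 of 36 genes (86.1%). By gene the share was 68.5% of the 9749 tested genes with a window, which had 12464 windows, and 46.7% of all genes in the table. A gene with more windows has more chances to hold a core, so the shares by gene are not alike in this respect. Slc2a3 and Pdp1 were not matched. Of the 28 windows of the 19 genes that rose with hypoxia in both genotypes (below), 21 held a core (75.0%), and of the 28 windows of the other genes, 20 did (71.4%). Over all 32851 windows of the table the share was 43.8%, and over the windows of all tested genes it was 62.3%. The median GC content was 60.8% in the windows of these genes and 60.7% in those of tested genes. A match is a description of letters and not a binding site, and the share did not separate the genes that rose from the rest.

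Library totals ran from 14519731 to 18177016 counts. Hif1an, the edited gene, held 1316 and 1389 counts in WT normoxia, 1609 and 1231 in WT hypoxia, 584 and 673 in FIH-KO normoxia and 729 and 784 in FIH-KO hypoxia, so that it was lower but still counted in every FIH-KO library. Of 8 well-known hypoxia-induced genes outside the pathway, 8 rose with hypoxia in WT cells and 7 in FIH-KO cells, and the exception was Car9 (log2 fold change -0.22). The keratin genes Krt8 and Krt18 held at least 103.8 CPM in every library, whereas the epithelial gene Epcam, the lung lineage genes Nkx2-1, Sftpc and Sftpa1 and the leukocyte genes Cd3e and Adgre1 were at 0 counts in all 8 libraries. The summed level of 6 leukocyte markers was higher in hypoxia, between 1.71 and 3.14 CPM in WT and at least 0.716 CPM in FIH-KO cells, against at most 0.118 CPM in normoxia. Most of it was Csf1r, which reached 2.97 CPM. The sum of 3 endothelial markers was also higher in hypoxia, at 0.296 to 0.321 CPM in WT normoxia, 1.77 to 2.41 in WT hypoxia, 0.179 to 0.224 in FIH-KO normoxia and 0.325 to 0.437 in FIH-KO hypoxia. The sum of 5 fibroblast markers was lower in hypoxia, at 28.8 to 31.0 CPM against 16.9 to 24.8 in WT and at 21.97 to 25.6 against 9.31 to 19.1 in FIH-KO cells. Among these markers Pdgfra reached 27.4 CPM, and no other exceeded the 4.65 CPM of Dcn. The sum of 5 epithelial markers was 326 to 352 CPM in WT normoxia, 226 to 283 in WT hypoxia, 436 to 538 in FIH-KO normoxia and 334 to 447 in FIH-KO hypoxia. Beside Krt8 and Krt18, Krt19 held at most 14.7 CPM and Cdh1 at most 0.068. The part of these markers in the results was not tested. RNA came from whole cultures, so more cells with a transcript and more RNA per cell cannot be told apart.

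Hypoxia raised the RNA of most glycolytic enzymes in both genotypes. In WT cells 20 of the 38 genes rose and 5 fell (edgeR quasi-likelihood test, adjusted p under 0.05), where 16.9% of all tested genes rose and 15.5% fell. In FIH-KO cells 19 rose and 3 fell, beside 8.84% and 8.0% of all tested genes. The median log2 fold change of the 38 genes was 0.52 in WT and 0.73 in FIH-KO cells, against -0.0011 and -0.03 over all tested genes. The 19 genes that rose in both genotypes were Slc2a1, Hk1, Hk2, Gpi1, Pfkl, Pfkp, Aldoa, Tpi1, Gapdh, Pgk1, Pgam1, Eno1, Eno2, Pkm, Pfkfb3, Ldha, Slc16a3, Pdk1 and Pdp2, and 7.92% of all tested genes rose in both. A rise of at least 2-fold in both was measured for 11 of the 38 genes and for 3.04% of all tested genes. Together the 38 genes took 1.78% and 1.63% of the counts of the WT normoxia libraries and 3.08% and 2.68% in WT hypoxia. The shares were 1.36% and 1.35% in FIH-KO normoxia and 3.50% and 3.11% in FIH-KO hypoxia.

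**Figure D1:**
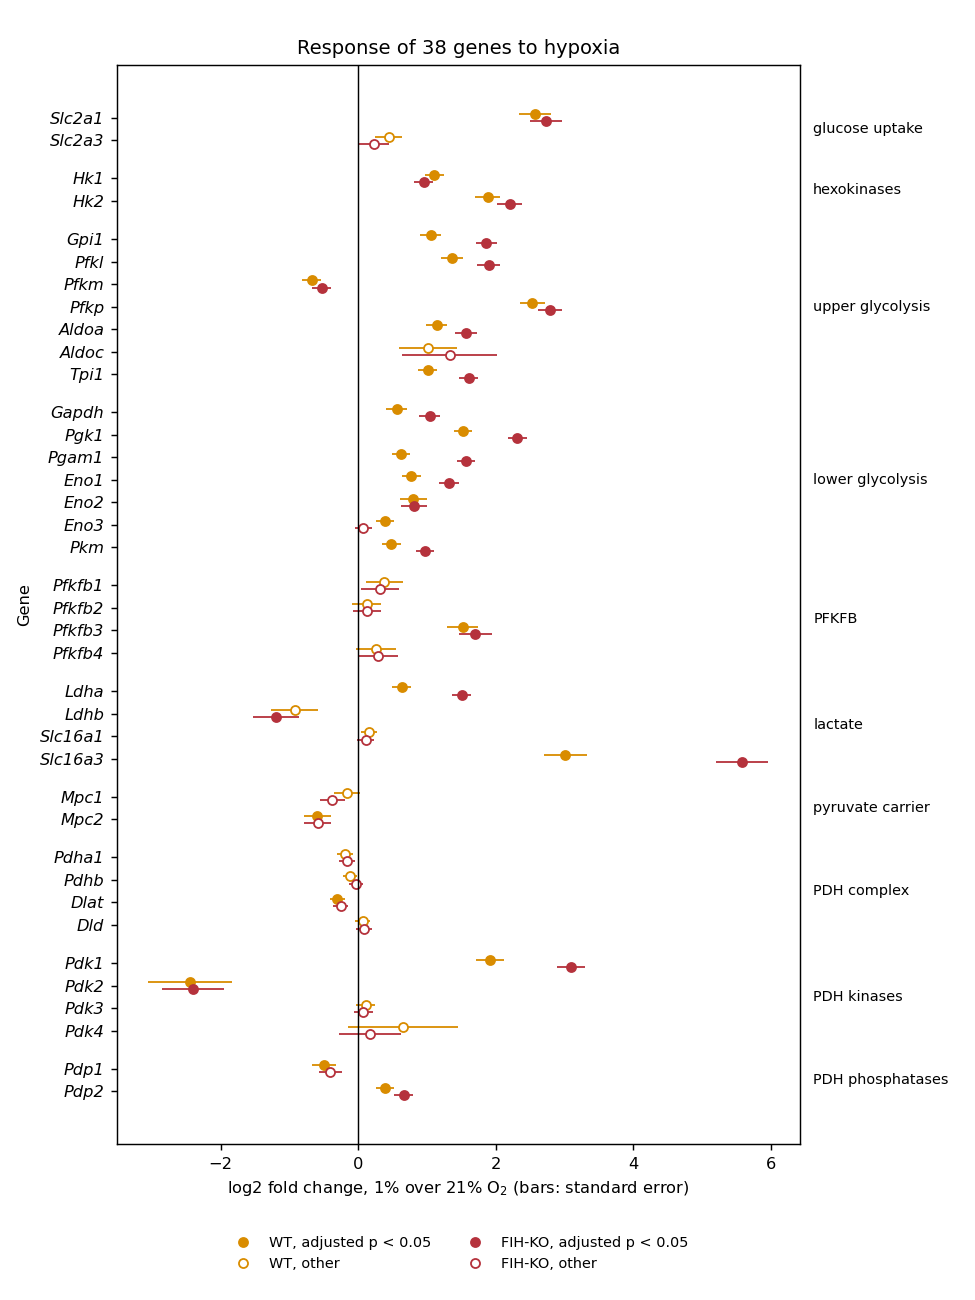
The log2 fold change of 1% over 21% O2 (x axis) is plotted for each of the 38 genes (y axis, by role) in WT cells and in FIH-KO cells, with bars for the standard error and filled points for an adjusted p under 0.05. The points of Slc16a3 lie furthest to the right, at 3.01 for WT and 5.58 for FIH-KO, and those of Pdk2 furthest to the left, at -2.44 and -2.41.

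Glucose enters through facilitative transporters. Slc2a1 encodes GLUT1, the widespread basal transporter, and lies on chromosome 4 (GRCm39, 118965908 to 118996365). Its level was 128 and 126 CPM in WT normoxia, 810 and 699 in WT hypoxia, 144 and 124 in FIH-KO normoxia and 1157 and 626 in FIH-KO hypoxia. Every hypoxic library was above every normoxic one, and the fold change was 5.94 in WT (log2 2.57, standard error 0.23, adjusted p = 1.7e-05, edgeR) and 6.65 in FIH-KO cells (log2 2.73, standard error 0.23, adjusted p = 1.7e-05). The FIH-KO hypoxia libraries of this gene differed from each other more than the means of the genotypes differed in hypoxia. They lay on either side of the WT hypoxia libraries. Slc2a3, which encodes the high-affinity transporter GLUT3, held 16.5 and 14.5 CPM in WT normoxia, 23.3 and 18.7 in WT hypoxia, 7.44 and 8.56 in FIH-KO normoxia and 10.9 and 7.81 in FIH-KO hypoxia. Its change with hypoxia did not pass the test in WT (log2 0.44, adjusted p = 0.11) or in FIH-KO cells (log2 0.23, adjusted p = 0.52), and it was called in WT cells in a fit of the 4 WT libraries.

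Hexokinases trap glucose in the cell as glucose 6-phosphate. Hk2, the isozyme best known in tumors, held 129 and 121 CPM in WT normoxia, 524 and 395 in WT hypoxia, 92.8 and 90.01 in FIH-KO normoxia and 503 and 337 in FIH-KO hypoxia. It rose by 1.88 on the log2 scale in WT cells (standard error 0.18) and by 2.20 in FIH-KO cells (standard error 0.18), with an adjusted p of 2.8e-05 and 1.7e-05. Hk1, the housekeeping isozyme, held 118 and 132 CPM in WT normoxia, 299.8 and 238 in WT hypoxia, 196 and 173 in FIH-KO normoxia and 387 and 328 in FIH-KO hypoxia. Hk1 rose as well, by 1.10 and 0.95 on the log2 scale.

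Of the 7 genes of the upper pathway, from glucose 6-phosphate to the triose phosphates, 5 rose in both genotypes, Pfkm fell in both, and Aldoc did not pass the test in either. Pfkp, the platelet-type phosphofructokinase, rose most. Its level was 90.2 and 72.5 CPM in WT normoxia, 499.7 and 442 in WT hypoxia, 62.6 and 51.3 in FIH-KO normoxia and 461 and 326 in FIH-KO hypoxia, and the log2 change was 2.53 in WT (standard error 0.18, edgeR adjusted p = 4.1e-06) and 2.79 in FIH-KO cells (standard error 0.18, adjusted p = 2.3e-06). The liver-type gene Pfkl held 245 and 221 CPM in WT normoxia, 716 and 484 in WT hypoxia, 217 and 234 in FIH-KO normoxia and 874 and 807 in FIH-KO hypoxia. The muscle-type gene Pfkm moved the other way, with a log2 change of -0.68 in WT and -0.53 in FIH-KO cells. Its CPM were between 44.3 and 55.8 in WT hypoxia against 76.6 to 83.3 in WT normoxia. The call of Pfkm in FIH-KO cells was lost without FIH-KO hypoxia replicate 1 or FIH-KO normoxia replicate 1 and in a fit of the 4 FIH-KO libraries alone (adjusted p up to 0.17).

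Gpi1, the isomerase that makes fructose 6-phosphate, held 531 and 504 CPM in WT normoxia, 1151 and 999.6 in WT hypoxia, 546 and 443 in FIH-KO normoxia and 2039 and 1562 in FIH-KO hypoxia. Aldoa, the main aldolase, held 727 and 684, 1673 and 1431, 751 and 609, and 2283 and 1743 CPM in the same order of groups. Tpi1, which interconverts the triose phosphates, held 945 and 780 CPM in WT normoxia, 1868 and 1601 in WT hypoxia, 615 and 562 in FIH-KO normoxia and 1827 and 1749 in FIH-KO hypoxia. The log2 fold change with hypoxia was 1.06 and 1.86 for Gpi1 in WT and FIH-KO cells, 1.14 and 1.57 for Aldoa, and 1.008 and 1.60 for Tpi1. Aldoc, the brain-type aldolase, was near the limit of detection. It held 1.03 and 0.889 CPM in WT normoxia and 2.41 and 1.43 in WT hypoxia, and in FIH-KO cells it held 0.238 and 0.112 CPM in normoxia and 0.375 and 0.521 in hypoxia.

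The 7 genes of the lower pathway, from glyceraldehyde 3-phosphate to pyruvate, all rose in WT cells, and 6 of them rose in FIH-KO cells. Pgk1, the first ATP-yielding enzyme, held 662 and 575 CPM in WT normoxia, 1899 and 1661 in WT hypoxia, 468 and 503 in FIH-KO normoxia and 2597 and 2225 in FIH-KO hypoxia. It rose by 1.52 in WT (standard error 0.14, adjusted p = 1.7e-05, edgeR) and by 2.31 in FIH-KO cells (standard error 0.14, adjusted p = 1.4e-06), both as log2 values. Per kilobase of annotated exon, Pgk1 ranked 83 among the 13933 tested genes in WT normoxia and 20 in WT hypoxia. Its rank was 91 in FIH-KO normoxia and 13 in FIH-KO hypoxia.

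Pgam1, phosphoglycerate mutase, held 333 and 284 CPM in WT normoxia, 508 and 441 in WT hypoxia, 141 and 161 in FIH-KO normoxia and 428 and 470 in FIH-KO hypoxia. Its log2 change was 0.62 in WT and 1.57 in FIH-KO cells. Eno1, the ubiquitous enolase, held 2304 and 2237 CPM in WT normoxia, 4269 and 3488 in WT hypoxia, 1861 and 1994 in FIH-KO normoxia and 5145 and 4493 in FIH-KO hypoxia, with a log2 change of 0.77 and 1.32. Gapdh, often used as a reference gene, was not flat: it held 3424 and 3318 CPM in WT normoxia, 5511 and 4435 in WT hypoxia, 2348 and 2300 in FIH-KO normoxia and 5325 and 4249 in FIH-KO hypoxia. It rose by 0.56 and 1.04 on the log2 scale. Pkm, pyruvate kinase, rose by 0.48 and 0.97, and its CPM lay between 3203 and 4398 at 21% O2 and from 5407 to 6603 at 1% O2. The count table does not separate the PKM1 and PKM2 splice forms. The neuronal enolase gene Eno2 held between 10.6 and 30.1 CPM and rose in both genotypes by 0.80 and 0.81, and the muscle enolase gene Eno3 rose in WT cells by 0.39 but had a log2 change of 0.07 in FIH-KO cells (adjusted p = 0.75).

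Several calls of these smaller WT responses depended on which libraries were in the fit. With 1 library left out, the log2 change stayed positive. It was 0.36 to 0.70 for Gapdh, 0.33 to 0.58 for Pkm, 0.46 to 0.73 for Ldha and 0.47 to 0.72 for Pgam1. The WT calls of Gapdh, Pkm and Ldha were lost without WT hypoxia replicate 1 or WT normoxia replicate 2, as was that of Pgam1, and those of Gapdh and Pkm also without WT normoxia replicate 1 (adjusted p up to 0.17 for Gapdh, 0.19 for Pkm, 0.097 for Ldha and 0.081 for Pgam1). The WT calls of Eno2 were lost without WT hypoxia replicate 2 or either WT normoxia library (adjusted p up to 0.099), the FIH-KO call of Eno2 was lost without FIH-KO normoxia replicate 2 (0.088), and the WT call of Eno3 was lost in 11 of 15 alternatives (up to 0.31). In FIH-KO cells the calls of Gapdh, Pgam1, Pkm and Ldha held in every alternative that was run.

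The PFKFB enzymes set the level of fructose 2,6-bisphosphate, the strongest activator of phosphofructokinase. Pfkfb3, the isozyme with the highest kinase activity, held 22.6 and 15.3 CPM in WT normoxia, 67.0 and 41.6 in WT hypoxia, 11.6 and 11.3 in FIH-KO normoxia and 39.7 and 34.8 in FIH-KO hypoxia. It rose by 1.52 in WT (standard error 0.23, adjusted p = 0.00046, edgeR) and by 1.70 in FIH-KO cells (standard error 0.23, adjusted p = 0.00060). Pfkfb1, Pfkfb2 and Pfkfb4 held between 3.25 and 11.5 CPM in every library, and none of the 3 passed the test, with log2 changes between 0.12 and 0.38. Pfkfb4, which is induced by hypoxia in many tissues, had a change of 0.26 in WT and 0.28 in FIH-KO cells.

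Lactate dehydrogenase A reduces pyruvate to lactate and regenerates NAD. Ldha held 2384 and 1970 CPM in WT normoxia, 3587 and 3151 in WT hypoxia, 1466 and 1497 in FIH-KO normoxia and 4140 and 4272 in FIH-KO hypoxia. It rose by 0.63 in WT (standard error 0.14, adjusted p = 0.0043, edgeR) and by 1.51 in FIH-KO cells (standard error 0.14, adjusted p = 3.3e-05). Ldhb, whose enzyme favors the return of lactate to pyruvate, held 2.89 and 3.14 CPM in WT normoxia, 1.79 and 1.37 in WT hypoxia, 4.17 and 4.20 in FIH-KO normoxia and 1.31 and 2.34 in FIH-KO hypoxia. Every hypoxic library of Ldhb was below every normoxic one, but only the fall in FIH-KO cells passed the test (log2 -1.20, standard error 0.33, adjusted p = 0.027), and not that in WT cells (log2 -0.92, adjusted p = 0.057), which was called in 5 of 15 alternatives. The FIH-KO call of Ldhb was lost in a fit of the 4 FIH-KO libraries and without FIH-KO hypoxia replicate 1, either FIH-KO normoxia library or either WT normoxia library (adjusted p up to 0.17).

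The lactate exporter MCT4, the product of Slc16a3, showed the widest range of the 38 genes. Slc16a3 lies on chromosome 11 (GRCm39, 120838846 to 120851694). It held 12.5 and 7.40 CPM in WT normoxia, 95.3 and 64.0 in WT hypoxia, 2.26 and 1.40 in FIH-KO normoxia and 112 and 62.7 in FIH-KO hypoxia. The hypoxic libraries of the genotypes overlapped, whereas the normoxic libraries did not overlap. The fold change with hypoxia was 8.05 in WT (log2 3.01, standard error 0.31, adjusted p = 4.4e-05, edgeR) and 47.9 in FIH-KO cells (log2 5.58, standard error 0.38, adjusted p = 3.3e-06). Slc16a1, which encodes the related carrier MCT1, lay between 311 and 433 CPM in all 8 libraries, and its log2 change of 0.16 in WT and 0.11 in FIH-KO cells did not pass the test.

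**Figure D2:**
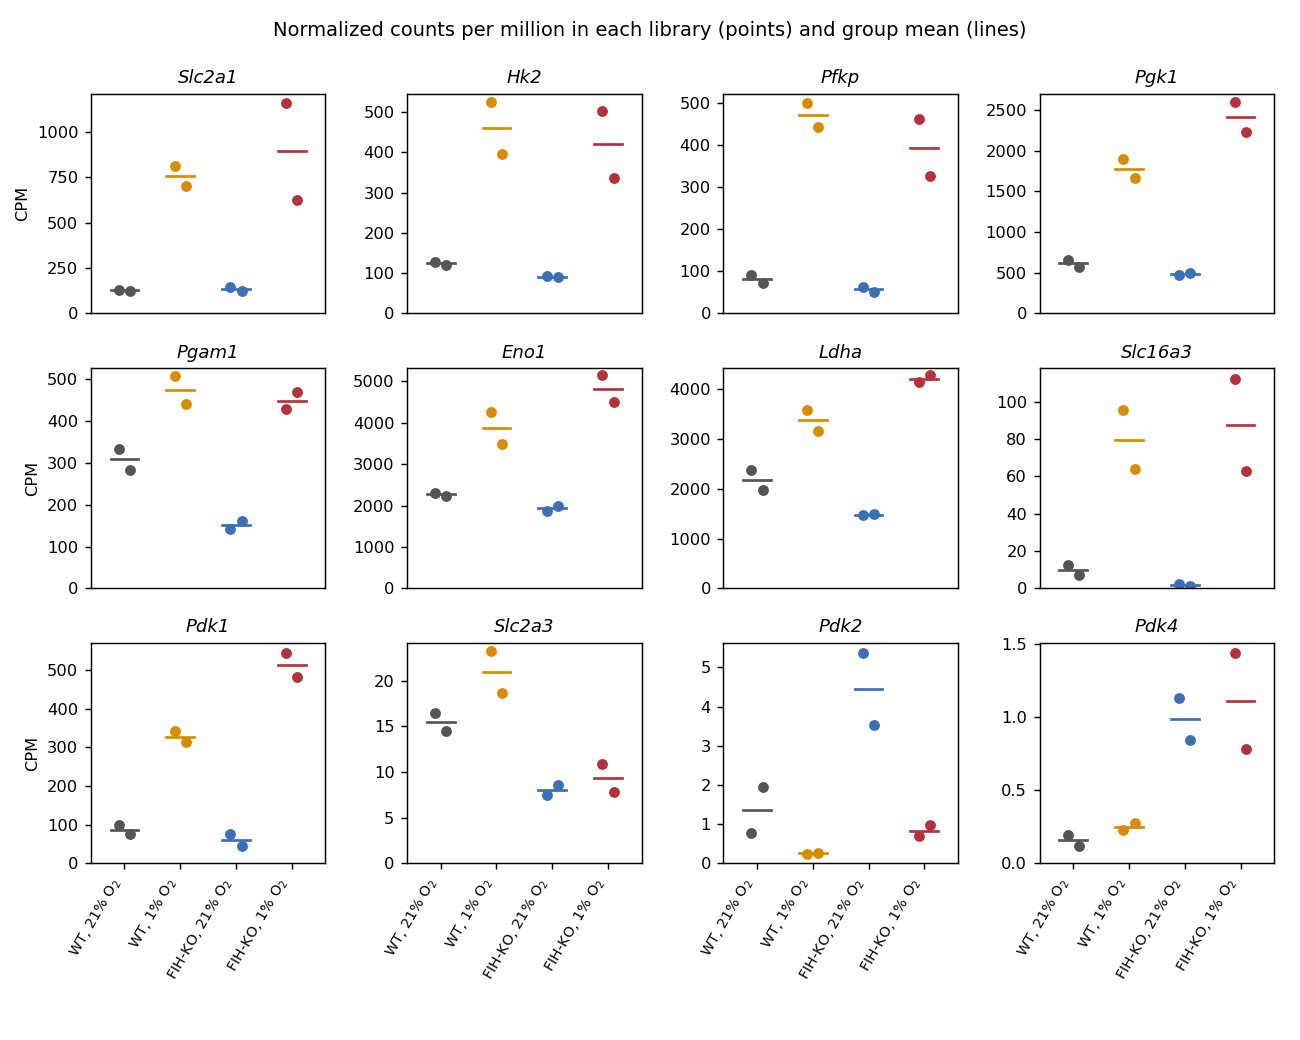
CPM (y axis, linear from 0, a scale for each gene) of 12 genes is plotted in each of the 8 libraries by group (x axis), with points for libraries and lines for group means. In Pgk1, Eno1, Ldha and Pdk1 both FIH-KO libraries lie below both WT libraries at 21% O2 and above both at 1% O2.

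Pyruvate enters mitochondria through a carrier made of Mpc1 and Mpc2. Mpc1 held between 14.4 and 25.4 CPM and did not pass the test, and Mpc2 fell in WT cells by 0.60 on the log2 scale, from 12.5 and 14.2 CPM to 9.30 and 8.33. The change of Mpc2 in FIH-KO cells was -0.59 and missed the threshold (adjusted p = 0.058), but it was called without FIH-KO hypoxia replicate 2. Of the 4 PDH complex genes, only Dlat, the E2 acetyltransferase core, was called, with a log2 change of -0.30 in WT cells. Pdha1 and Pdhb (the E1 subunits) and Dld (E3) had log2 changes between -0.19 and 0.08. The WT calls of Mpc2 and Dlat were lost without any 1 of the 4 WT libraries (adjusted p up to 0.18 and 0.20), and that of Dlat also under DESeq2 and without a filter on low counts.

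PDH kinases phosphorylate and shut off the PDH complex. Pdk1 held 98.8 and 75.2 CPM in WT normoxia, 341 and 314 in WT hypoxia, 74.4 and 45.6 in FIH-KO normoxia and 544 and 481 in FIH-KO hypoxia. It rose 3.77-fold in WT (log2 1.91, standard error 0.20, adjusted p = 4.4e-05, edgeR) and 8.54-fold in FIH-KO cells (log2 3.09, standard error 0.21, adjusted p = 2.9e-06). Pdk2 went the other way, at 0.771 and 1.95 CPM in WT normoxia, 0.224 and 0.273 in WT hypoxia, 5.36 and 3.53 in FIH-KO normoxia and 0.687 and 0.976 in FIH-KO hypoxia. Its summed counts were 8 in WT hypoxia against 45 in WT normoxia, a ratio of 0.177 with an exact 95% interval of 0.072 to 0.380, and 26 against 153 in FIH-KO cells, a ratio of 0.183 (0.116 to 0.279), where intervals cover counting error only. The fall passed the test in both genotypes, but the WT call was lost without WT hypoxia replicate 1 or WT normoxia replicate 2 (adjusted p up to 0.14). Pdk3 stayed between 35.7 and 45.0 CPM in all libraries. Pdk4 held 5 counts in WT normoxia and 8 in WT hypoxia over both libraries, and no change with hypoxia passed the test.

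PDH phosphatases reverse that block. Pdp2 rose by 0.39 in WT and by 0.66 in FIH-KO cells on the log2 scale, while Pdp1 fell by 0.50 in WT cells and had a log2 change of -0.41 in FIH-KO cells (adjusted p = 0.13). The WT call of Pdp2 was lost in 8 alternatives (adjusted p up to 0.23). That of Pdp1 was lost without WT hypoxia replicate 1 or either WT normoxia library (adjusted p up to 0.27).

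The shift between isozymes was described as the share of each gene in its family, from counts per kilobase of annotated exon (the union of exons in the reference annotation), with no test because 2 against 2 libraries cannot go below p = 0.33 in an exact permutation test. Pfkp made up 15.4% ± 1.6 of the phosphofructokinase RNA in WT normoxia (SD, n = 2) and 35.7% ± 3.2 in WT hypoxia, and 10.7% ± 1.2 and 24.5% ± 3.7 in FIH-KO cells. Pfkm made up 28.0% ± 3.0 in WT normoxia and 7.13% ± 2.4 in WT hypoxia, and 34.9% ± 3.3 and 8.08% ± 1.2 in FIH-KO cells. Hk2 took 51.5% ± 3.0 of the hexokinase RNA in WT normoxia and 64.4% ± 0.84 in WT hypoxia, against 34.5% ± 1.5 and 55.1% ± 4.1 in FIH-KO cells. Pdk1 took 66.0% ± 1.4 of the PDH kinase RNA in WT normoxia and 87.5% ± 0.030 in WT hypoxia, against 54.3% ± 7.0 and 91.4% ± 0.79 in FIH-KO cells.

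The lactate carriers remained dominated by Slc16a1. Slc16a3 made up 1.20% ± 0.52 of the pair in WT normoxia and 7.89% ± 2.0 in WT hypoxia, and 0.251% ± 0.059 and 9.99% ± 2.8 in FIH-KO cells. Ldhb never exceeded 0.299% of the lactate dehydrogenase pair. Pdp1 was the larger part of the phosphatase pair only in FIH-KO normoxia, at 60.9% ± 0.16, beside 40.8% ± 0.36 in WT normoxia, 27.0% ± 4.5 in WT hypoxia and 42.7% ± 0.85 in FIH-KO hypoxia. Shares of raw counts without division by length moved each level. For Slc16a3 they were 2.53% in WT normoxia, 15.5% in WT hypoxia, 0.536% in FIH-KO normoxia and 19.1% in FIH-KO hypoxia. The annotated exon length was 11305 bases for Slc16a3 and 5286 for Slc16a1, so the division lowers the share of Slc16a3.

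**Figure D3:**
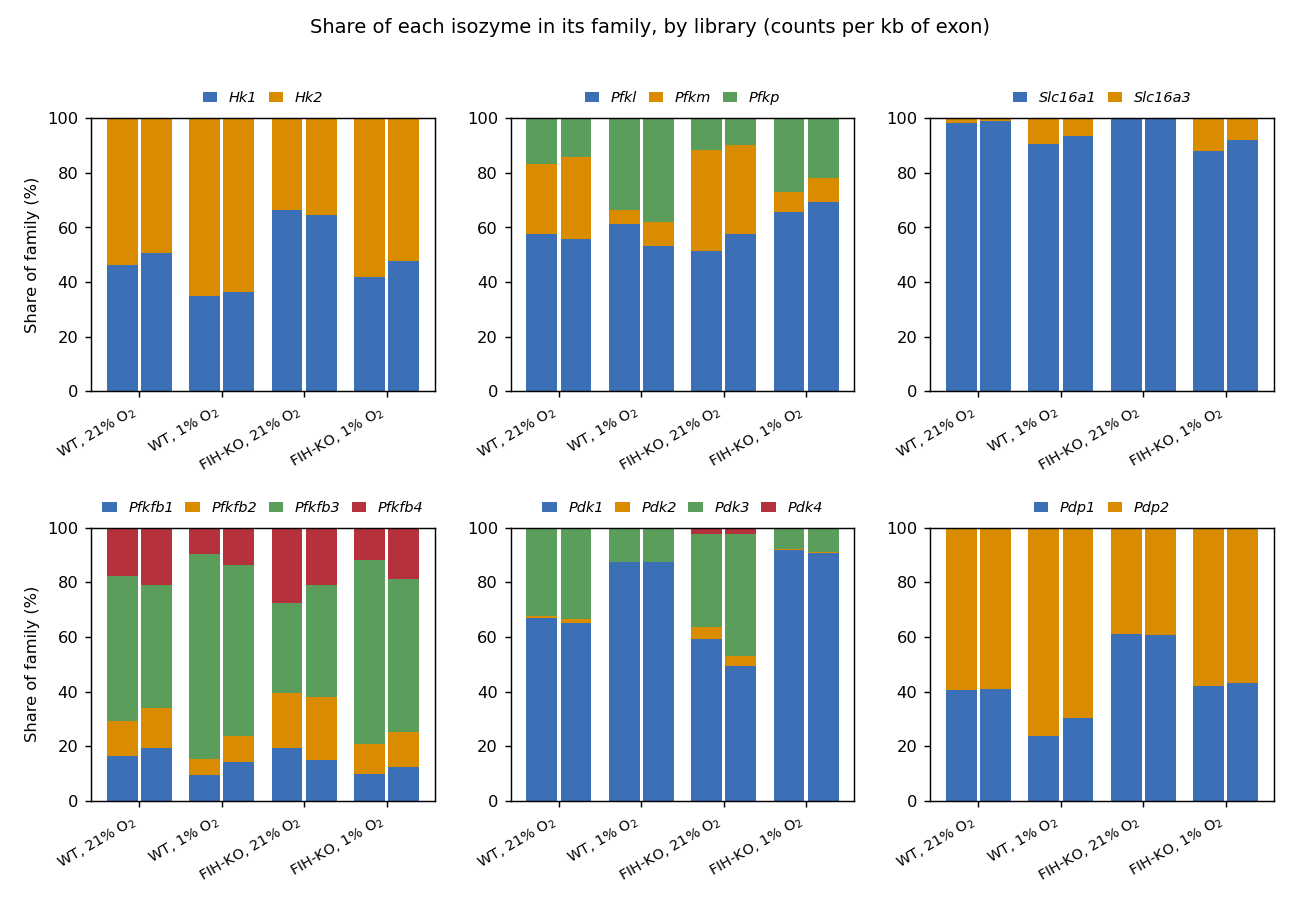
Stacked bars give the share (y axis, percent of counts per kilobase of exon) of each isozyme in 6 families, with 1 bar for each library and 2 bars for each group (x axis). The Hk2 part is smallest in FIH-KO normoxia (34.5% on average), and the Pfkp part is largest in WT hypoxia (35.7% on average).

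The second question was how FIH-KO cells differed from WT cells at each oxygen level. These comparisons use the same libraries as those of hypoxia, so the values are set side by side and not taken as separate evidence. In normoxia 6 of the 38 genes were higher in FIH-KO cells and 12 were lower, beside 15.2% and 13.0% of all tested genes. In hypoxia 10 were higher and 3 lower, beside 14.1% and 13.9%. The median log2 fold change of the 38 genes was -0.18 in normoxia and 0.14 in hypoxia, against -0.0025 and -0.03 over all tested genes. None of the 38 genes was called in opposite directions at the 2 oxygen levels in this fit. The share of all tested genes with opposite calls was not computed for any fit, so no excess over other genes is meant. Opposite calls (lower in normoxia, higher in hypoxia) were made for some of the 38 genes in other fits. Pdk1 was called so in 5 of 15, namely DESeq2, no filter on low counts, the replicate block, and without FIH-KO hypoxia replicate 2 or FIH-KO normoxia replicate 1. Pgk1 was called so in 3 (DESeq2, no filter, and without FIH-KO hypoxia replicate 2) and Ldha in 2 (DESeq2 and no filter).

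Genes lower in FIH-KO cells in normoxia spanned the pathway. Slc16a3 was 5.42-fold lower (log2 -2.44, standard error 0.41, adjusted p = 0.0011, edgeR), and Pgam1 was 2.04-fold lower (log2 -1.03, standard error 0.13, adjusted p = 0.00017). Pgam1 lies on chromosome 19, where the median log2 fold change over 476 tested genes was -0.38. Centred on that median its value was -0.65. The same centring took Pfkp from -0.51 to -0.34 and Pdhb from -0.35 to -0.21. Pfkfb3, Pdp2, Ldha, Tpi1, Dlat, Gapdh, Pfkp and Pdhb had log2 fold changes between -0.73 and -0.35, and Slc2a3 had -0.95 (adjusted p = 0.0053). The normoxia calls of Pgam1, Slc16a3, Dlat and Pdp2 held in every alternative that was run. Those of Ldha, Tpi1 and Slc2a3 were lost without WT normoxia replicate 1 (adjusted p of 0.11, 0.11 and 0.050), and those of Gapdh, Pfkp, Pfkfb3 and Pdhb were lost without either FIH-KO normoxia library or WT normoxia replicate 1 (adjusted p up to 0.30). The calls of Gapdh and Pdhb were also lost without WT normoxia replicate 2, that of Pfkp without either WT hypoxia library, and that of Pdhb without a filter on low counts. In hypoxia the values of Slc16a3, Pgam1, Tpi1 and Gapdh were between -0.08 and 0.13, and Ldha stood at 0.32 (adjusted p = 0.097), a value that DESeq2 and the fit without a filter called. Centred on chromosome 19, the hypoxia value of Pgam1 was 0.37.

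Slc2a3, Aldoc and Dlat were lower in FIH-KO cells at both oxygen levels. Of all tested genes 13.0% were lower in normoxia and 13.9% in hypoxia, and the share lower at both levels was not computed. For Slc2a3 all FIH-KO libraries were below all WT libraries, with a log2 fold change of -1.17 in hypoxia (standard error 0.21, adjusted p = 0.0016, edgeR). Aldoc had 6 counts in FIH-KO normoxia against 31 in WT normoxia, a ratio of 0.184 (exact 95% interval 0.063 to 0.449), and 14 against 64 in hypoxia, a ratio of 0.226 (0.117 to 0.407). The Aldoc calls were lost without WT normoxia replicate 1 or FIH-KO normoxia replicate 2 in normoxia and without WT hypoxia replicate 1 in hypoxia (adjusted p up to 0.078 and 0.095). The hypoxia call of Dlat was lost without WT hypoxia replicate 2 (adjusted p = 0.053).

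Genes higher in FIH-KO cells at both oxygen levels were Hk1, Eno2, Eno3, Pdk4 and Pdp1. Of all tested genes 15.2% were higher in normoxia and 14.1% in hypoxia. The share higher at both levels was not computed, so no excess over other genes is meant. Eno3 held between 38.2 and 43.6 CPM in the 4 FIH-KO libraries and between 19.8 and 27.2 in the 4 WT libraries, with a log2 fold change of 0.95 at 21% O2 (standard error 0.13, adjusted p = 0.00033, edgeR) and 0.64 at 1% O2 (standard error 0.13, adjusted p = 0.0034). Pdk4, a PDH kinase best known from fasting, held 0.193 and 0.118 CPM in WT normoxia, 0.224 and 0.273 in WT hypoxia, 1.13 and 0.840 in FIH-KO normoxia and 1.44 and 0.781 in FIH-KO hypoxia. All FIH-KO libraries of Pdk4 were above all WT libraries. The count ratio was 34 to 5 in normoxia, or 6.48 (exact 95% interval 2.52 to 21.2), and 35 to 8 in hypoxia, or 4.52 (2.06 to 11.3). Hk1 was higher by 0.56 in normoxia and 0.41 in hypoxia (0.27 when centred on the median of its chromosome), Eno2 by 0.59 and 0.60, and Pdp1 by 0.58 and 0.67. The calls of Eno3 held in every alternative that was run. In normoxia those of Hk1, Eno2, Pdk4 and Pdp1 were each lost without FIH-KO normoxia replicate 1 or WT normoxia replicate 1, and those of Eno2, Pdk4 and Pdp1 also without WT normoxia replicate 2 (adjusted p up to 0.29). In hypoxia Hk1 was lost without FIH-KO hypoxia replicate 1 or WT hypoxia replicate 2, Eno2 and Pdp1 without FIH-KO hypoxia replicate 2 or WT hypoxia replicate 1, and Pdk4 under DESeq2 and without FIH-KO hypoxia replicate 1 or either WT hypoxia library (adjusted p up to 0.30). The calls of Hk1 and Eno2 in hypoxia were also lost in a fit of the 4 hypoxic libraries.

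Pdk2 was called higher in normoxia (153 counts against 45, a ratio of 3.24, exact 95% interval 2.31 to 4.62) and had a ratio of 3.36 in hypoxia (26 counts against 8, 1.48 to 8.58) that missed the test across genes (adjusted p = 0.073, edgeR), although it was called without a filter on low counts and without WT normoxia replicate 1. Its normoxia call was lost without FIH-KO normoxia replicate 1 or WT normoxia replicate 1 (adjusted p up to 0.13).

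Genes called higher in FIH-KO cells in hypoxia but not in normoxia were Gpi1, Pfkl, Pfkm, Pgk1 and Pdk1. Gpi1 stood at -0.06 on the log2 scale in normoxia and at 0.74 in hypoxia (standard error 0.15, adjusted p = 0.0037, edgeR). Pdk1 had -0.54 at 21% O2 (adjusted p = 0.060) and 0.64 at 1% O2 (adjusted p = 0.025), and Pgk1 had -0.35 (adjusted p = 0.069) and 0.44 (adjusted p = 0.028). Pgk1 lies on the X chromosome, where the median over 471 tested genes was 0.14 in hypoxia, and its centred value there was 0.29. The median of chromosome 2, which holds Pdk1, was 0.23 in normoxia and 0.21 in hypoxia, and centred on it Pdk1 stood at -0.77 and 0.44. The normoxia values of Pdk1 and Pgk1 were called lower in FIH-KO cells in 6 and 5 of the 15 other fits, among them DESeq2, no filter on low counts and those without either FIH-KO hypoxia library. Only the hypoxia call of Gpi1 held in every alternative. The calls of Pfkl and Pgk1 were lost without FIH-KO hypoxia replicate 1 or WT hypoxia replicate 2 and in a fit of the 4 hypoxic libraries, that of Pfkm without FIH-KO hypoxia replicate 2 or WT hypoxia replicate 1, and that of Pdk1 without FIH-KO hypoxia replicate 1 or either WT hypoxia library (adjusted p up to 0.30). Slc2a1 and Hk2 passed the test at neither oxygen level, with log2 fold changes of 0.08 and -0.45 in normoxia and 0.24 and -0.13 in hypoxia. Hk2 was called lower in normoxia in 6 of the 15 other fits (DESeq2, no filter on low counts, the replicate block, the 4 normoxic libraries, and without either FIH-KO hypoxia library). The hypoxia value of Slc2a1 was -0.23 without FIH-KO hypoxia replicate 1, and without replicate 2 it was 0.62 and called (adjusted p = 0.0057, edgeR).

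**Figure D4:**
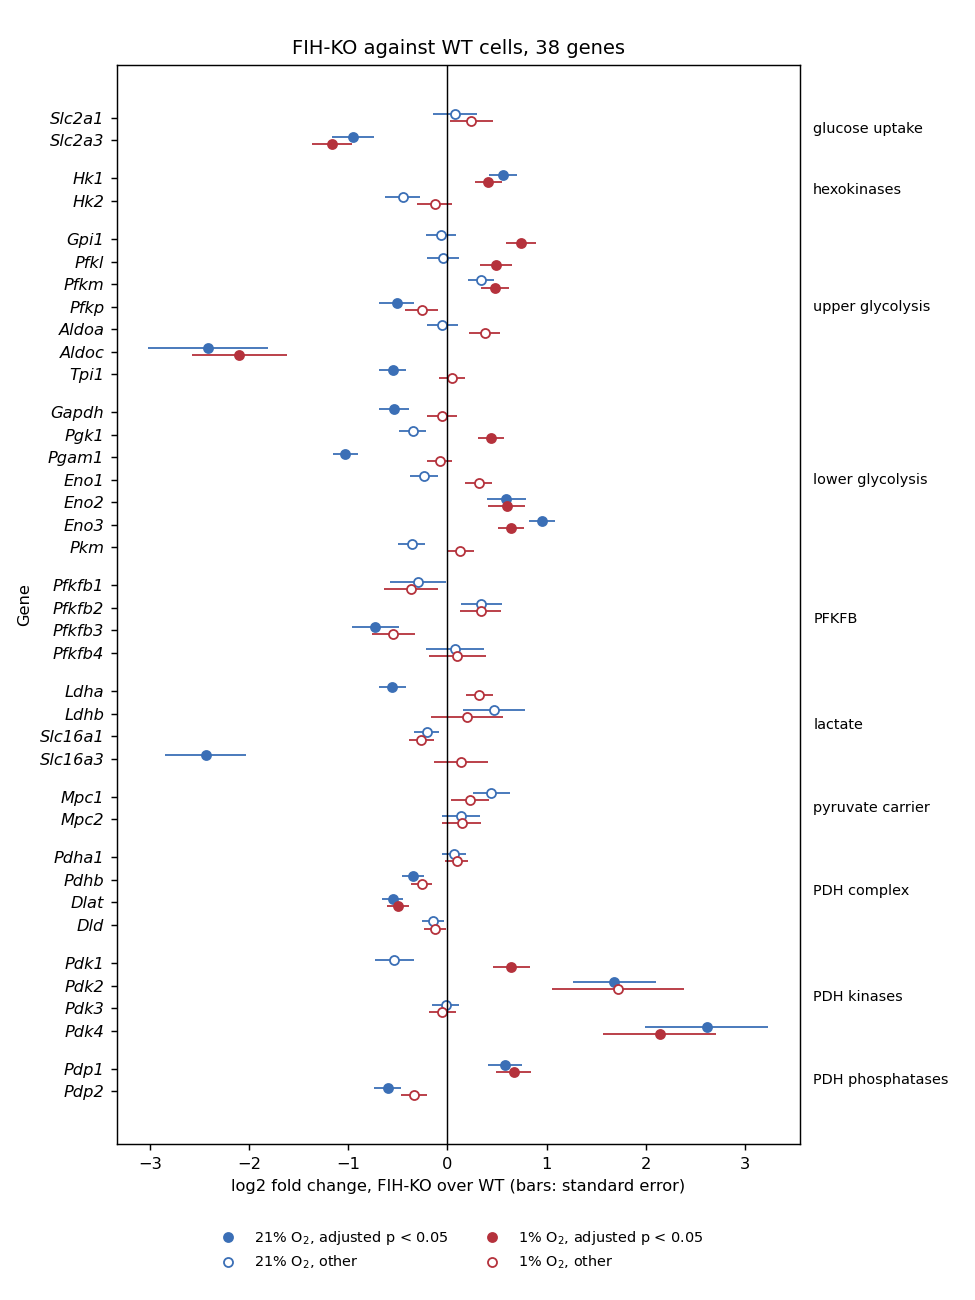
The log2 fold change of FIH-KO over WT cells (x axis) is plotted for each of the 38 genes (y axis, by role) at 21% and at 1% O2, with bars for the standard error and filled points for an adjusted p under 0.05. Slc16a3 sits at -2.44 at 21% and at 0.13 at 1% O2, and Pdk1 at -0.54 and 0.64.

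Whether hypoxia acted more strongly in FIH-KO than in WT cells was tested as the difference of the responses in the same fit. No gene passed, neither among the 38 nor among all tested genes (0.0%), and the smallest adjusted p of the 38 was 0.19 (edgeR). The difference was positive for 28 of the 38 genes, with a median of 0.12 against -0.02 over all tested genes. At an unadjusted p under 0.05 the response was larger in FIH-KO cells for 11 of the 38 genes (Gpi1, Pfkl, Tpi1, Gapdh, Pgk1, Pgam1, Eno1, Pkm, Ldha, Slc16a3 and Pdk1) and for 2.53% of all tested genes. The log2 difference was 2.57 for Slc16a3 (standard error 0.50), 1.18 for Pdk1 (0.27), 0.95 for Pgam1 (0.18), 0.88 for Ldha (0.19), 0.81 for Gpi1 (0.22) and 0.79 for Pgk1 (0.19). For Slc2a1, Hk1, Hk2 and Pfkp it lay between -0.15 and 0.32.

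DESeq2 called the difference for 5 of the 38 genes, Gpi1, Pgk1, Pgam1, Ldha and Pdk1, with adjusted p-values between 0.0011 and 0.047, and called a larger response in FIH-KO cells for 0.137% of the genes to which it gave an adjusted p. In edgeR without a filter on low counts 8 of the 38 genes were called, beside 0.175% of the genes in that fit. The call on these genes therefore differs between tools and, within edgeR, with the filter on low counts. The difference of Slc16a3, Pdk1, Pgam1, Ldha, Gpi1 and Pgk1 was positive in every alternative that was run. In 4 genes, Pgk1, Eno1, Ldha and Pdk1, both FIH-KO libraries were below both WT libraries in normoxia and above both in hypoxia, a pattern found in 1.2% of all tested genes. The reverse pattern was found in none of the 38 and in 1.7% of all tested genes.

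Neighboring pathways were read from lists of genes outside the 38. Of 5 genes of serine and one-carbon synthesis, which branches off at 3-phosphoglycerate, 3 rose with hypoxia in each genotype (beside 16.9% of all tested genes for WT and 8.84% for FIH-KO), and 3 were lower in FIH-KO cells in normoxia and 5 in hypoxia (13.0% and 13.9% of all tested genes). Psat1, the aminotransferase of that branch, averaged 579 CPM in WT normoxia, 825 in WT hypoxia, 280 in FIH-KO normoxia and 526 in FIH-KO hypoxia. Phgdh, its first enzyme, had a log2 fold change of -0.87 between FIH-KO and WT cells in hypoxia (adjusted p = 0.00063, edgeR). Phgdh averaged 421 CPM in WT normoxia, 480.4 in WT hypoxia, 259 in FIH-KO normoxia and 263 in FIH-KO hypoxia. Psph, which releases serine, rose with hypoxia by 1.64 in WT and 1.17 in FIH-KO cells.

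Of 7 genes of the hexosamine branch, 5 rose and 1 fell with hypoxia in WT cells, 4 rose in FIH-KO cells, and 4 were lower in FIH-KO than in WT cells in hypoxia. Of all tested genes 16.9% rose and 15.5% fell in WT cells, 8.84% rose in FIH-KO cells, and 13.9% were lower in FIH-KO cells in hypoxia. Gnpnat1, an acetyltransferase of that branch, averaged 24.9 CPM in WT normoxia, 57.1 in WT hypoxia, 18.3 in FIH-KO normoxia and 36.0 in FIH-KO hypoxia. Gfpt2 rose from 0.212 to 4.82 CPM in WT and from 0.084 to 1.71 CPM in FIH-KO cells.

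Of 10 pentose phosphate genes, none passed the test as higher with hypoxia in edgeR, while 3 fell in WT cells and 2 in FIH-KO cells (15.5% and 8.0% of all tested genes). Against WT cells, 2 of the 10 were called higher in the knockout at 21% O2 and 3 at 1% O2 (15.2% and 14.1% of all tested genes). Taldo1, transaldolase, was higher in FIH-KO cells by 0.53 in normoxia and 0.70 in hypoxia, and H6pd by 0.56 and 0.68. Of 6 tested genes of gluconeogenesis and glycerol phosphate, 2 rose and 2 fell with hypoxia in WT cells and 3 fell in FIH-KO cells, beside 16.9%, 15.5% and 8.0% of all tested genes. In normoxia 2 of these 6 were higher in FIH-KO cells (15.2% of all tested genes), and none was called in hypoxia. Pcx, pyruvate carboxylase, averaged 15.6 CPM in WT normoxia and 34.4 in FIH-KO normoxia, and with hypoxia in FIH-KO cells it dropped to 17.2, while its log2 change in WT cells was 0.45 (adjusted p = 0.12, edgeR). Pck2, the mitochondrial carboxykinase, rose by 1.45 with hypoxia in WT cells, had a log2 change of 0.45 in FIH-KO cells (adjusted p = 0.085, edgeR) and averaged 71.9 CPM in WT normoxia and 113 in FIH-KO normoxia.

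Of 32 further isoforms and partners of the 38 genes, 13 had enough reads to be tested. With hypoxia 4 rose and 2 fell in WT cells, while 3 rose in FIH-KO cells (16.9%, 15.5% and 8.84% of all tested genes). Against WT cells, 3 were higher and 4 lower in normoxia (15.2% and 13.0% of all tested genes) and 4 were higher and 4 lower in hypoxia (14.1% and 13.9%). Bsg, the chaperone subunit of the lactate carriers, rose with hypoxia in both genotypes, by 1.10 on the log2 scale in WT cells (382 to 817 CPM) and by 1.25 in FIH-KO cells (420.2 to 1001 CPM). Emb, the other such chaperone, averaged 74.9 CPM in WT normoxia, 66.1 in WT hypoxia, 18.7 in FIH-KO normoxia and 17.0 in FIH-KO hypoxia (log2 fold change in hypoxia -1.96). Slc2a6, which encodes a lysosomal member of the glucose transporter family, averaged 0.121 CPM in WT normoxia, 2.45 in WT hypoxia, 1.65 in FIH-KO normoxia and 6.49 in FIH-KO hypoxia. Slc2a13, a proton myo-inositol transporter, was lower in FIH-KO cells at both oxygen levels (log2 fold changes -3.11 and -2.48), at group means of 0.920 CPM or less.

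Processed copies of glycolytic genes in the genome could take or give reads. The table lists 18 such copies by name for 8 of the 38 genes. They held at most 1.08% of the reads of their parent gene, except for Mpc1 (between 11.9% and 20.2%) and Ldhb (up to 9.43%). Copies under names not built on that of the parent were not counted. The handling of multiply mapped reads is not given, so reads lost to copies were not tested.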

How the data were processed

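RNA-Seq covered 8 libraries of LLC cells, 2 in each of 4 groups named by the sample titles. The authors made stranded mRNA libraries, used STAR for alignment to GRCm39 and HTSeq for counting, and the deposited values are raw counts of reads per gene, with 1 column for each library. The submitters' notes name GRCm38 beside GRCm39. The annotation release, the strand setting and the handling of multiply mapped reads are not given in the sources used here, so reads of overlapping genes may be split.

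The counts were tested with edgeR 4.0.16 (R 4.3.3) by its quasi-likelihood test, after filterByExpr and TMM normalization, with all 8 libraries in 1 fit, and p-values were adjusted by Benjamini-Hochberg over the 13933 genes tested in a comparison (threshold 0.05). The study used DESeq2, which served here as an alternative (version 1.42.0). Standard errors were taken as the log2 fold change over the square root of F. The biological coefficient of variation was 11.7%. The scripts were tested on simulated data. CPM are TMM-normalized, intervals of count ratios are exact and conditional on the summed counts, and both libraries of each group differed beyond sampling noise (chi-square over degrees of freedom 6.20 to 25.9). Totals of 14519731 to 18177016 counts limit the precision of genes at a few CPM.

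Positions and exon lengths came from GENCODE for GRCm39, and promoter windows from the RefSeq table of GRCm38.p6, placed in GRCm39 by exact match. The motifs were ACGTG and GCGTG on either strand.

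All 38 genes are reported. Values in every library are given for genes that passed the test with a log2 fold change of 1 or more in size in any of the 4 comparisons of groups, or passed it in the difference, and for 5 genes that the study measured by qPCR. Genes named for each other list come from the up to 2 with the largest change that passed the test in a comparison of groups. Prps2, Shmt1, Shmt2, G6pc3 and Gpd1l also met that rule but are not described above. The genes, lists and tests were chosen with earlier results of these data known. Alternatives were DESeq2, other normalizations and filters, the replicate number in the model, fits of the 4 libraries of a comparison, each library left out, and values centred on the chromosome median.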

Additional observations from a re-analysis of the deposited data

How the results depend on the processing

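Of the 25 genes called for hypoxia in WT cells, 14 were called in every alternative, as were 18 of 22 in FIH-KO cells, 5 of 18 for FIH-KO against WT in normoxia and 3 of 13 in hypoxia. No called value turned its direction. In the fits of only the 4 libraries of a comparison, 1 gene was lower with hypoxia in FIH-KO cells and 6 were higher in FIH-KO cells in hypoxia. The difference of responses was called for 5 genes by DESeq2, 8 without a filter on low counts and 1 with the replicate block, and the cause was not tested. With 1 library left out, the number of genes higher with hypoxia in WT cells was 13 to 20 and lower 1 to 6, while 1 to 4 were lower with hypoxia in FIH-KO cells. For FIH-KO against WT in normoxia it was 1 to 6 higher and 4 to 16 lower, in hypoxia 5 to 11 higher, and for the difference 0 to 1. A count moved by over 1.5 times without each of the libraries except FIH-KO hypoxia replicate 2. A group left with 1 library is assumed to vary like the others.

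Among the 21 genes described by library, values that did not pass the test and crossed 0 when 1 library was left out had these log2 ranges. With hypoxia in FIH-KO cells they were Slc2a3 -0.01 to 0.44 and Pdk4 -0.30 to 0.54. For FIH-KO against WT in normoxia they were Slc2a1 -0.059 to 0.16, Gpi1 -0.24 to 0.052, Pfkl -0.14 to 0.00068 and Aldoa -0.23 to 0.065. In hypoxia they were Slc2a1 -0.23 to 0.62, Hk2 -0.41 to 0.13, Tpi1 -0.059 to 0.19, Gapdh -0.20 to 0.14, Pgam1 -0.17 to 0.060, Ldhb -0.27 to 0.60 and Slc16a3 -0.30 to 0.50. For the difference they were Slc2a1 -0.28 to 0.54, Slc2a3 -0.41 to 0.016, Hk1 -0.31 to 0.083, Aldoc -0.066 to 0.97, Pfkfb3 -0.11 to 0.63, Ldhb -0.75 to 0.15 and Pdk2 -0.73 to 0.61. Of the 62 values of the other 17 genes that did not pass the test, 24 crossed 0.

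Groups share replicate numbers, but the labels name no shared culture or day, so the numbers were not taken as pairs in the main fit. Deviations of same-numbered libraries correlated between -0.010 and 0.193. The highest value was between WT hypoxia and FIH-KO hypoxia, and whether these groups shared a day was not tested. With the replicate block, the difference of Pdk2 was -0.01 and that of Slc16a3 was called. The block gave 14 in place of 12 genes lower in FIH-KO cells in normoxia and moved each of the other counts by at most 1. Aldoc, Pdk2 and Pdk4 were not tested under the filter of 10 counts in every library. Depth limits these low genes most.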
